A study of Mus musculus with 6 samples.

Results

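The cytosolic ribosomal protein genes encode the proteins that join ribosomal RNA to form the translating ribosome of the cytoplasm. They were taken by name: every gene whose symbol in the deposited FPKM tables was Rpl or Rps followed by a number and at most an a or x, plus Rplp0, Rplp1, Rplp2, Rpsa, Rps3a1 and Fau, without pseudogene names and without the Rps6k kinases. This gave 77 of the 46603 genes in the count tables, 32 of the small subunit and 45 of the large subunit. All 77 are annotated as protein coding, and all 77 passed the filter on low counts. The RNA came from primary enamel organ cells of the lower incisors of C57BL/6 mice. The enamel organ is the dental epithelium that holds the ameloblasts, which secrete the enamel matrix and later mature it. One group of 3 libraries came from mice with a knockout of both Stim1 and Stim2 (DKO, replicates 1, 3 and 4), and the other from wild-type mice (WT, replicates 1, 2 and 3). Stim1 and Stim2 are the proteins that sense the calcium level inside the endoplasmic reticulum and open store-operated channels in the plasma membrane. The labels do not name the allele, or a promoter or Cre behind the knockout, and do not say whether a library holds 1 animal or several. Nor do they say that replicates came from separate animals, so the p-values rest on the spread among these libraries alone, which may be technical.

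Each ribosome needs 1 copy of nearly every ribosomal protein, bound to its own place on the ribosomal RNA, and the stalk proteins Rplp1 and Rplp2 are the exception, present as dimers. Small subunit proteins surround the messenger RNA and the decoding site, and large subunit proteins surround the peptidyl transferase centre and the exit tunnel. Their messenger RNAs are among the most abundant in most cells, and in vertebrates they start with a pyrimidine-rich tract, the 5′ TOP motif, that couples their translation to nutrient and growth signals through mTORC1. Secretory cells such as ameloblasts rely on this machinery for the bulk of their matrix protein.

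Total gene counts ran from 18609759 to 22829411 per library. Stim1 and Stim2 were lower in all 3 DKO libraries than in all 3 WT libraries, with log2 fold changes of -1.75 (SE 0.15) and -1.10 (SE 0.14) and adjusted p-values of 0.00553 and 0.018 by edgeR's quasi-likelihood test. A log2 fold change here is DKO over WT, adjusted by the Benjamini-Hochberg method over 14721 tested genes, and a gene is called at an adjusted p below 0.05. Ameloblast genes were present in every library: 13 enamel epithelium markers summed to between 106093 and 211905 counts per 1e+06 (CPM, scaled by the TMM method). Ambn and Amelx made up most of this sum, with 90060 and 81133 of the 211905 CPM in DKO 3. Of the 13 markers, 6 had an estimate above 0 and 7 below. In edgeR 1 was called, as lower in DKO, against 1.04% of all tested genes called. At an unadjusted p below 0.05 in edgeR there were 6, against 18% of all tested genes. DESeq2, which called 817 of the 25264 genes it fitted, called 4 of the 13. Summed markers of 4 other kinds of cell or state did not overlap between the groups. Summed oral keratinocyte markers lay between 92.9 and 137 CPM in DKO and between 274 and 475 in WT. Leukocyte markers lay between 173 and 292 CPM in DKO and between 122 and 171 in WT, endothelial markers between 371 and 403 against 250 and 321, and proliferation markers between 160 and 188 against 131 and 152. Mesenchyme markers, the largest of these sums, overlapped, between 10740 and 13597 CPM in DKO and between 6930 and 11538 in WT, as did erythroid and skeletal muscle markers. The part of these differences in the values below was not tested, and in bulk samples fewer cells of a type and less RNA per cell cannot be told apart.

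None of the 77 ribosomal protein genes was called between DKO and WT by edgeR, where 1.04% of all tested genes were, 0.734% as higher and 0.306% as lower in DKO. At an unadjusted p below 0.05 in edgeR the number was also 0, against 18% of all genes. The DESeq2 Wald test, which called 817 of the 25264 genes it fitted, likewise called 0 of the family. So did limma on log2(FPKM + 1), which called 77 of 13336 genes. The smallest adjusted p of a ribosomal protein gene in edgeR was 0.389, that of Rps27. The median log2 fold change was -0.04 over the family, -0.03 over the small subunit and -0.04 over the large subunit, and -0.0068 over all tested genes. An estimate below 0 was found for 57 genes and one above 0 for 20, whereas 51.3% of all genes lay below 0. The first number depended on the scaling, with 67 below 0 under total counts and 46 under upper-quartile scaling, and on single libraries, with 31 without WT 1 and 69 without DKO 1. With a covariate marking the libraries high in Xist, described further on, 43 lay below 0. The 77 genes share their libraries and vary together, as described further on, so these counts are not 77 separate observations.

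The intervals around these estimates were narrow. For 76 of the 77 genes the 95% interval of the fold change lay within 1.5-fold in either direction, a width reached by 58% of all tested genes. The remaining gene was Rpl24, which had almost no counts. Within the tighter bound of 1.25-fold lay 59 genes, 26 of the small and 33 of the large subunit, against 26% of all tested genes. The lowest bound among the other 76 genes was -0.52 on the log2 scale, for Rpl12, and the highest was 0.37, for Rpl41.

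**Figure D1:**
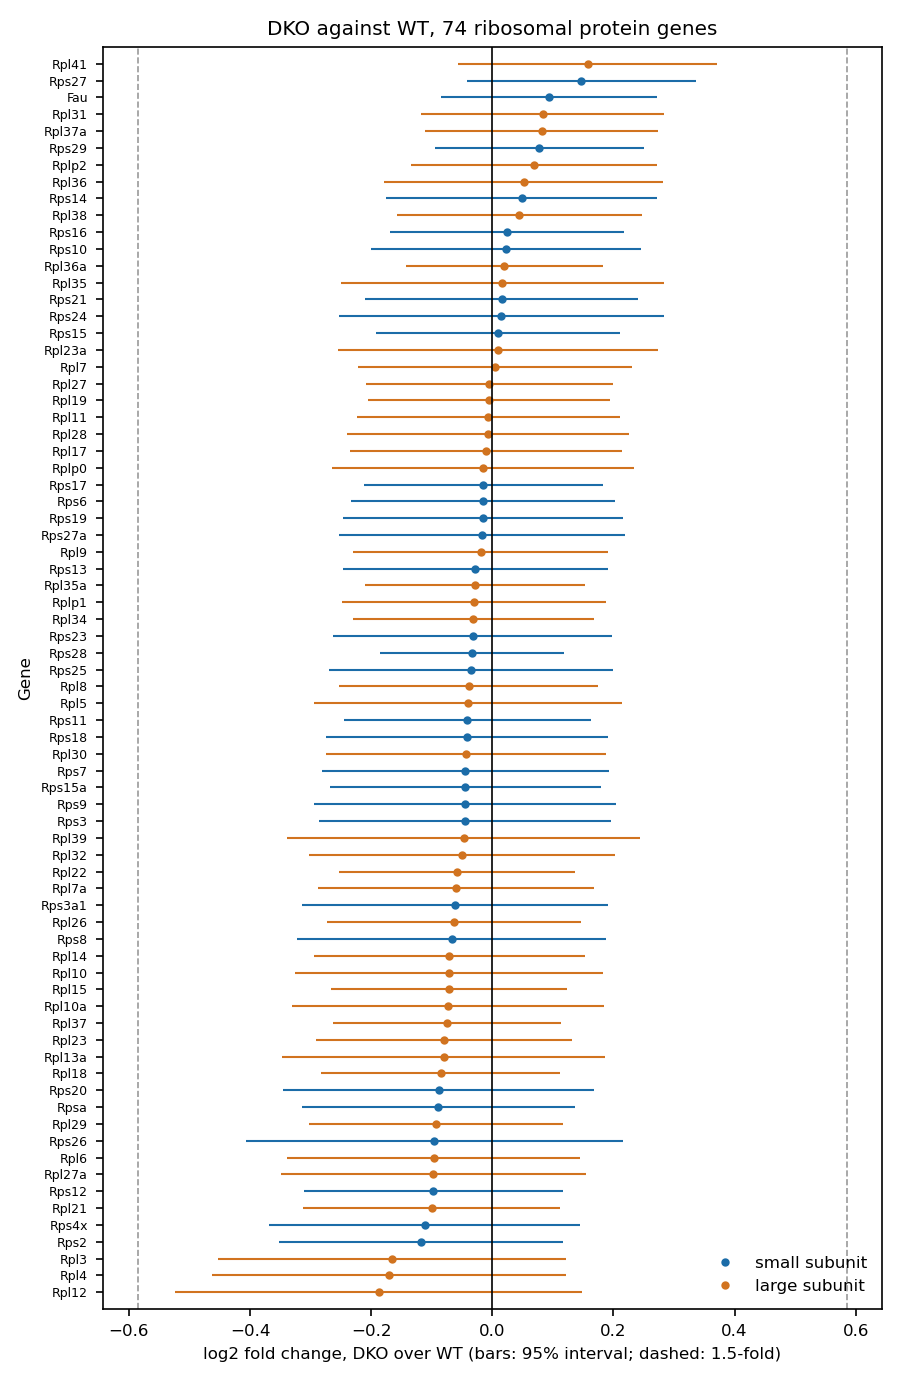
Log2 fold change of DKO over WT (x axis) for 74 ribosomal protein genes (y axis, ordered by estimate), with 95% intervals from edgeR as bars, small subunit genes in blue and large subunit genes in orange. Every interval crosses 0 and lies inside the dashed lines at 1.5-fold; Rpl24, with almost no counts, and 2 genes not reported by name are left out.

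The 3 largest estimates below 0 were those of Rpl12, Rpl4 and Rpl3. Rpl12, a protein at the base of the large subunit's stalk, had 308, 251 and 280 CPM in WT 1, 2 and 3 and 299, 215 and 223 in DKO 1, 3 and 4. DKO 1 lay among the WT values while DKO 3 and DKO 4 lay below them, and the log2 fold change was -0.19 ± 0.14 (SE) with an edgeR adjusted p of 0.545. Rpl4, which lines the exit tunnel and is the longest protein of the family at 419 residues, had 869, 692 and 767 CPM in WT and 768, 655 and 646 in DKO. The groups overlapped through WT 2 and DKO 1, and the log2 fold change was -0.17 ± 0.13 (SE) with an edgeR adjusted p of 0.526. Rpl3, which reaches into the peptidyl transferase centre, had 708, 541 and 620 CPM in WT and 601, 530 and 535 in DKO. Its log2 fold change was -0.17 ± 0.12 (SE) with an edgeR adjusted p of 0.531, and again DKO 1 was above the lowest WT library. With 1 library left out, Rpl12 ran from -0.10 without DKO 3 to -0.35 without DKO 1, Rpl4 from -0.077 without WT 1 to -0.25 without DKO 1, and Rpl3 from -0.060 without WT 1 to -0.26 without WT 2.

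At the other end, leaving Rpl24 aside, Rpl41, a strongly basic peptide of 25 residues and the shortest of the family, had 562, 575 and 585 CPM in WT and 682, 614 and 624 in DKO. All 3 DKO libraries lay above all 3 WT libraries, DKO 1 the highest, and the log2 fold change was 0.16 ± 0.092 (SE) with an edgeR adjusted p of 0.415. Rps27, a zinc-binding protein of the small subunit, had 244, 234 and 233 CPM in WT and 273, 270 and 243 in DKO. Here DKO 4 lay below WT 1 by under 1 CPM, and the log2 fold change was 0.15 ± 0.081 (SE) with an edgeR adjusted p of 0.389. Fau encodes the small subunit protein eS30 fused to a ubiquitin-like domain that is cut off after translation. It had 280.5, 266 and 286 CPM in WT and 302, 289 and 297 in DKO, with a log2 fold change of 0.094 ± 0.077 (SE) and an edgeR adjusted p of 0.567. Rps29, a zinc-binding protein of 56 residues, had 282, 287 and 296 CPM in WT and 306, 305 and 303 in DKO. Its groups did not overlap, and its log2 fold change was 0.078 ± 0.074 (SE) with an edgeR adjusted p of 0.628. Rpl31, at the rim of the exit tunnel, had a log2 fold change of 0.083 and overlapped between the groups.

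Rpl41, Fau and Rps29 were the only family members whose groups did not overlap, all 3 higher in DKO and 0 lower. Over all tested genes, 11.4% did not overlap with DKO higher and 11.8% with DKO lower. The 3 in 77 is therefore below the background share, and nothing is read from it.

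The start regions of 5 of these genes are shown because the genes stand at the ends of the range. They run from 50 bases before to 30 bases after the RefSeq start (GRCm38.p6), 5′ to 3′ on the gene's strand. Capitals mark matches, on either strand, to 4 motifs searched for: CTTTCC, a pyrimidine stretch of the kind a TOP tract holds; CGGAAG, the core of an ETS factor site; AAGATGG, the core of a YY1 site; and TCTCGCGA, an element found in many housekeeping promoters. The stretches are, for Rpl41, chr10:128549139-128549218 (minus strand), for Rps27, chr3:90213619-90213698 (minus), for Fau, chr19:6057897-6057976 (plus), for Rpl4, chr9:64173337-64173416 (plus), and for Rpl12, chr2:32961662-32961741 (plus).
Rpl41: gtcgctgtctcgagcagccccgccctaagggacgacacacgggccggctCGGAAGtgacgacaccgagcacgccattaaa
Rps27: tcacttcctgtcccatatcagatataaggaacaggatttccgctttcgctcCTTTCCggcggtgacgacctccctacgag
Fau: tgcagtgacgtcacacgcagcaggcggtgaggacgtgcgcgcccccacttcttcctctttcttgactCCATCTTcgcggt
Rpl4: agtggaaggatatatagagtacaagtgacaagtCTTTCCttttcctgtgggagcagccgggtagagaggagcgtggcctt
Rpl12: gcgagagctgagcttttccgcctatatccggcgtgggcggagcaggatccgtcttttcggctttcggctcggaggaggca
Each of the first 4 stretches held 1 of the motifs, and the Rpl12 stretch held none of the 4. CTTTCC is 1 fixed string. Other pyrimidine runs, such as those near the start in the Rpl12 and Fau stretches, were not marked. Whether any of these runs is a TOP tract was not tested. RefSeq windows of 300 bases (250 before and 50 after the start) were matched for 57 of the 77 genes, as 67 windows. CGGAAG was in 42 of the 67 (62.69%) and in 16.85% of all 32851 windows. CTTTCC was in 33 (49.25%) and in 26.56% of all windows. On the gene's own strand alone, where a TOP tract is read, CTTTCC was in 26 (38.81%) and in 14.14% of all windows. AAGATGG and TCTCGCGA were each in 12 (17.91%), and in 6.338% and 0.9954% of all windows. The motifs were picked after the windows had been seen, several genes have more than 1 window, and a match is a description of letters, not of binding.

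Transcript levels per length were read from the deposited FPKM (fragments per kilobase of transcript and per 1e+06 fragments), the unit in which genes of different length can be set side by side. In WT the family spanned a 10.2-fold range of mean FPKM, with a median of 543 and quartiles of 424 and 688. The small subunit had a median of 626 and the large subunit of 474. In DKO the family median was 503. The stalk protein Rplp1 stood highest, at 2091 ± 97.5 FPKM in WT and 2044 ± 132 in DKO (SD, n = 3 each). Its stalk partners were lower, Rplp0, the anchor of the stalk, at 1070 ± 78.4 in WT and 1059 ± 57.6 in DKO, and Rplp2 at 467 ± 10.0 in WT and 495 ± 46.7 in DKO.

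Rpl41 came next after Rplp1, with 1757 ± 65.1 FPKM in WT and 1950 ± 148 in DKO. Of the small subunit, Rps27 (1350 ± 27.8 in WT), Rps12 (1343 ± 70.3), Rps29 (1266 ± 44.5), Rps15 (1162 ± 61.0) and Rps14 (856 ± 71.8) were the highest 5. The first 2 of these were indistinguishable given their spread. Rpl13a at 1228 ± 160 and Rpl23a at 894 ± 80.7 completed the highest 5 of the large subunit. The lowest genes of the large subunit were Rpl35 at 206 ± 15.9 FPKM, Rpl39 at 235 ± 17.6, Rpl37 at 240 ± 10.3, Rpl22 at 265 ± 21.5 and Rpl12 at 314 ± 34.6. The lowest of the small subunit were Rps20 at 315 ± 32.1, Rpsa, also known as the laminin receptor, at 340 ± 11.0, Rps3 at 352 ± 34.6, Rps7 at 356 ± 10.9 and Rps13 at 368 ± 21.8. Thus Rps20, the small subunit's lowest, stood at the level of Rpl12. None of these 20 genes was called between the groups.

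The deposited counts and the deposited FPKM disagreed for several family members, and those with the lowest counts are described here. Rpl24, a large subunit protein that bridges to the small subunit, had 7, 9 and 15 counts in the WT libraries and 11, 11 and 12 in the DKO libraries, yet 388, 348 and 363 FPKM in WT and 402, 343 and 358 in DKO. Genes of like FPKM had far higher counts, as the plot of counts against FPKM shows. In GENCODE vM21, 484 of its 1030 exon bases also belong to Gm28037, which had 0 counts in every library. Rpl23a had a mean of 894 FPKM in WT with 1667, 1090 and 1388 counts, and 62.3% of its exon bases are shared with other genes, most of them with Tlcd1. Rpl35 had 1080, 798 and 869 counts in WT, and 66.2% of its exon bases are shared, with Wdr38. These 3 had the lowest WT counts of the family. How reads on shared bases were counted is not stated in the sources used here, and the part of the shared bases in the low counts was not tested. The log2 fold change of Rpl24, 0.33 ± 0.42 (SE) with an edgeR adjusted p of 0.724, rests on these few counts, was 0.097 without WT 1 and 0.68 without WT 3, and by FPKM the gene had 367 ± 20.3 in WT and 368 ± 30.4 in DKO. Rpl23a (0.0092) and Rpl35 (0.017) were estimated near 0, and Rpl23a was on the other side of 0 in FPKM, at -0.038.

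**Figure D2:**
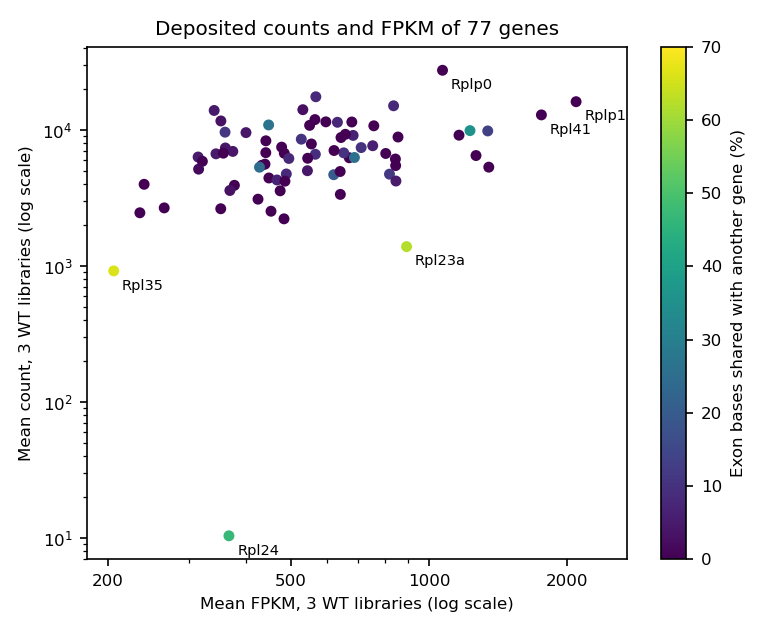
Mean deposited count (y axis, log scale) against mean deposited FPKM (x axis, log scale) over the 3 WT libraries for the 77 ribosomal protein genes, coloured by the percentage of exon bases that another gene shares. Rpl24, Rpl23a and Rpl35 have the lowest counts and share 47.0%, 62.3% and 66.2% of their exon bases.

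From library to library most of the family varied together. DKO 1 held the highest CPM of 37 of the 77 genes and WT 1 that of 39, leaving 1 gene, which was highest in WT 3. The lowest value fell in DKO 3 for 36 genes, in DKO 4 for 21, in WT 2 for 14, and in WT 1 and WT 3 for 3 each. How many genes outside the family were highest or lowest in each library is not given here. The pattern is thus not shown to be particular to the family. The median gene lay above its own mean by 0.12 on the log2 scale in DKO 1 and by 0.10 in WT 1, and near or below it in the other 4 libraries, at -0.10 in DKO 3, -0.073 in DKO 4, -0.054 in WT 2 and 0.016 in WT 3. Both high libraries carry the replicate number 1, one from each genotype, and the labels do not say what that number stands for.

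The median SD of log2 CPM over the 6 libraries was 0.102 for the family. It was 0.187 over all tested genes and 0.124 over the 4932 genes with at least the mean count of the lowest family member other than Rpl24. Taken relative to the summed CPM of the family, the median SD fell to 0.0519. Pearson's r was taken between a gene's log2 CPM and the log2 summed CPM of the other family genes. It had a median of 0.894 over the 77 genes, from 6 shared libraries each, and exceeded 0.9 for 37. No such r is given here for genes outside the family. Rps3a1 (0.994), Rps3 (0.987) and Rpl13a (0.985) were among those closest to the sum of the others. The 3 that went most against it were Rpl24 (-0.478), Rps29 (-0.295) and Rpl41 (0.058).

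**Figure D3:**
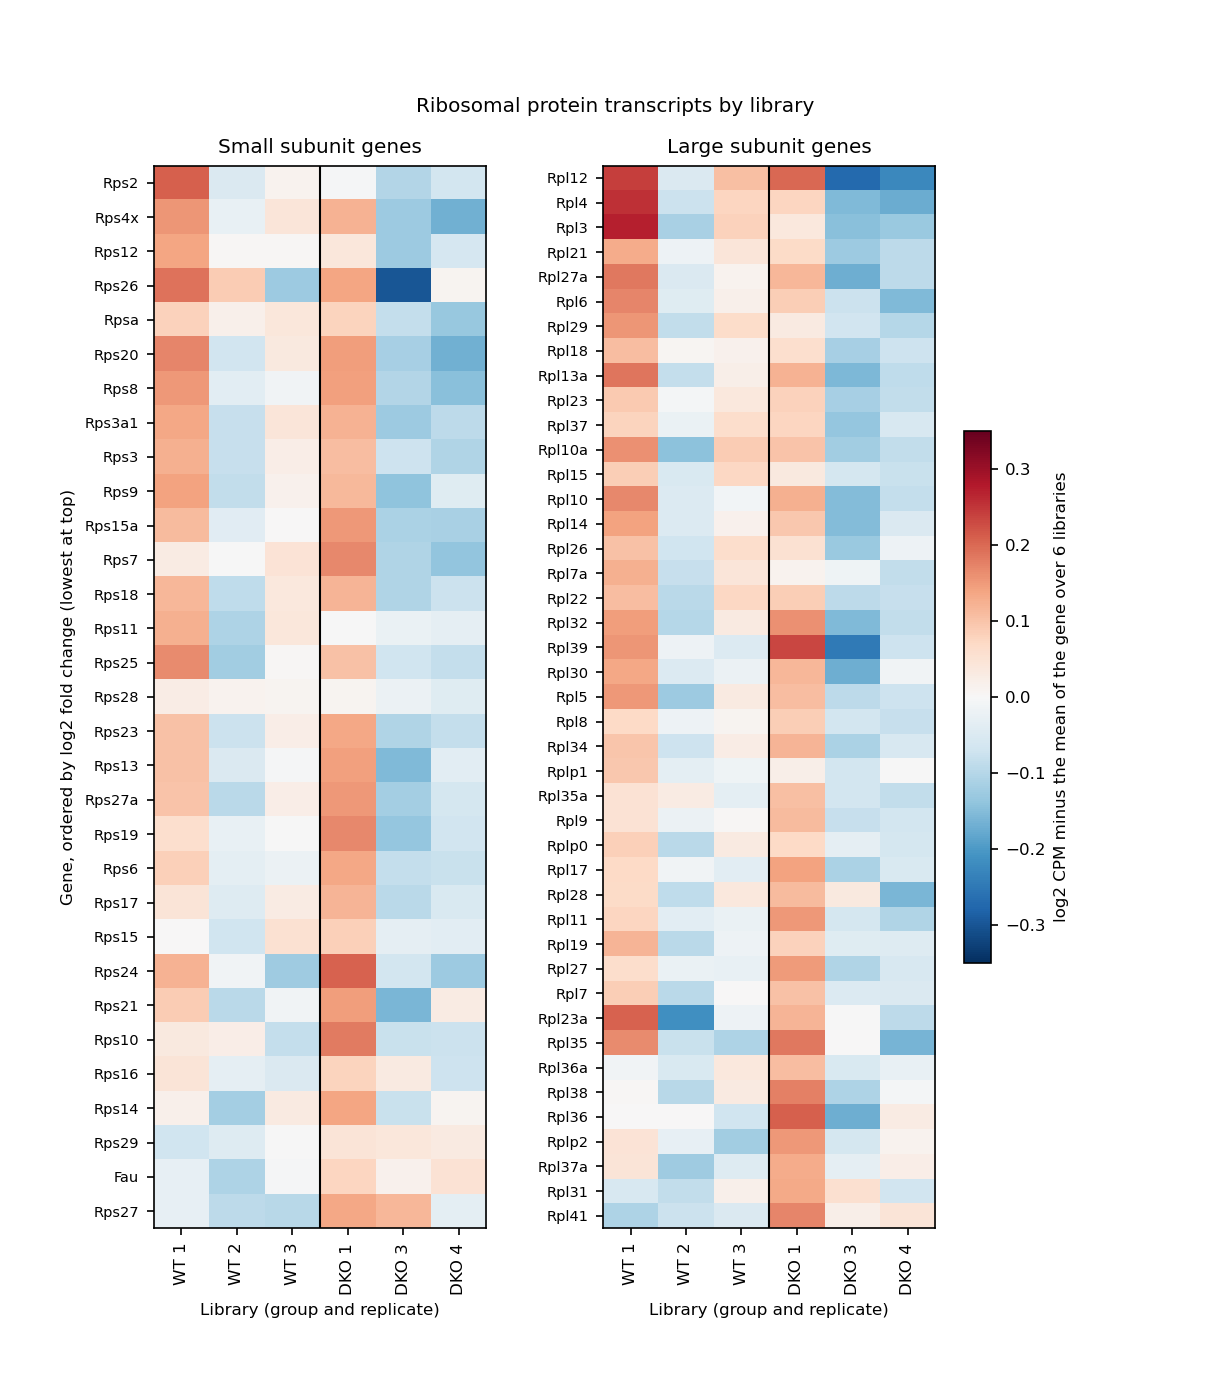
Log2 CPM of each ribosomal protein gene minus its mean over the 6 libraries (colour), by library (x axis) and gene (y axis, ordered by log2 fold change from lowest at the top), with small subunit genes on the left and large subunit genes on the right; Rpl24 and 2 genes not reported by name are left out. Most genes are red in WT 1 and DKO 1 and blue in DKO 3 and DKO 4, and Rps27, Rps29, Fau and Rpl41 at the bottom break this pattern.

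Other features of the libraries followed this order in part. The sum of 6 erythroid markers was lowest in the same 2 libraries, 134 CPM in DKO 1 and 140 in WT 1, against 244 to 435 in the rest. The matrix genes Ambn and Amelx took 11.2% of the counts in DKO 1 and 6.86% in WT 1, and between 10.7% and 15.8% in the other 4, so only WT 1 stood apart. Xist, the RNA of the inactive X chromosome, was above 100 CPM in DKO 1, WT 1 and WT 2 and below 2 in the others. In WT 2 the family level was not high. With a covariate marking the libraries above 100 CPM, the family's median log2 fold change was -0.0030, with 43 genes below 0. Without that covariate the values were -0.039 and 57. The medians over all tested genes were -0.0054 with it and -0.0068 without it. The part of erythroid markers, matrix genes and Xist in the family's pattern from library to library was not tested.

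As a share of all counts, the family took 2.75%, 2.32% and 2.60% in WT 1, 2 and 3 and 2.70%, 2.16% and 2.36% in DKO 1, 3 and 4. The mean was 2.56% ± 0.221 in WT and 2.41% ± 0.274 in DKO (SD, n = 3 each). The difference of -0.152 percentage points was smaller than the SD of either group, and the two-sided exact permutation test gave p = 0.5, where 0.1 is the smallest p that 3 against 3 libraries can give. Single libraries moved the difference, to -0.299 points without DKO 1, -0.272 without WT 2, -0.0545 without WT 1 and -0.0277 without DKO 3. Counting error was far smaller than this spread, with 95% Wilson intervals of at most 0.00718 points on either side. These intervals cover counting error only, since no molecular identifiers separate PCR copies from independent molecules. With Ambn and Amelx taken out of the total, the share was 2.84% in WT and 2.76% in DKO (exact permutation p = 0.8). In FPKM the direction turned: 8.22%, 7.81% and 7.58% of the summed FPKM in WT and 9.66%, 7.65% and 7.42% in DKO, a difference of 0.372 points (exact permutation p = 0.9). DKO 1 alone stood above the WT libraries there. The summed FPKM lacks the 9 genes whose estimate had failed, Ambn and Amelx among them.

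The balance of the subunits hardly varied. Small subunit counts divided by large subunit counts gave 0.703, 0.718 and 0.705 in WT and 0.717, 0.712 and 0.712 in DKO. The DKO libraries lay inside the WT range through WT 2 alone, since WT 1 and WT 3 lay below all 3. The log2 ratio differed by 0.010 (exact permutation p = 0.4, two-sided), by 0.020 without WT 2 (exact permutation p = 0.1), by 0.0047 without WT 1 and by 0.0067 without WT 3. By FPKM the ratio lay between 0.802 and 0.819 in all 6 libraries, with a difference in log2 ratio of 0.0088 (exact permutation p = 0.4). The small subunit took 1.06% of counts in WT and 1.002% in DKO, and the large subunit 1.498% and 1.404%. WT 1, with the largest share of ribosomal protein counts, had the lowest ratio, 0.703, and DKO 3, with the smallest share, had 0.712.

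**Figure D4:**
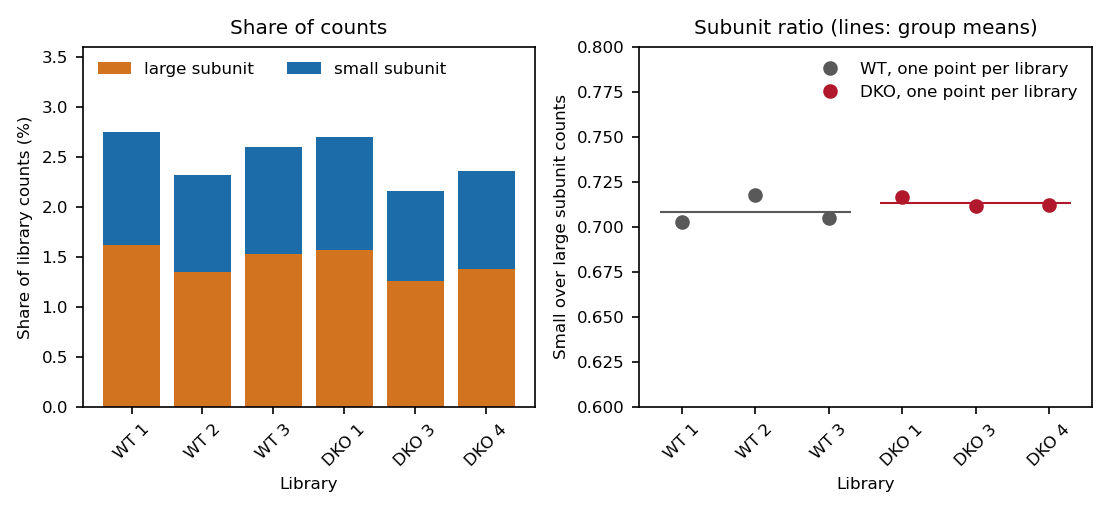
Left, the percentage of library counts in small (blue) and large (orange) subunit genes for each of the 6 libraries; right, the ratio of small to large subunit counts, 1 point per library with group means as lines, on an axis from 0.6 to 0.8. The share runs from 2.16% in DKO 3 to 2.75% in WT 1, and the ratio stays between 0.703 and 0.718.

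The order of the fold changes followed the length of the protein, a relation looked at after the values had been seen. Over 76 genes without Rpl24, Spearman's rho between the log2 fold change and the coding length in GENCODE vM21 was -0.48. The genes share the 6 libraries and are not independent. Over 13543 other tested coding genes rho was -0.22, so a weaker relation of the same sign ran through the whole transcriptome. With offsets for transcript length and GC content in the fit it was -0.35 in the family. Of the 25 shortest genes, of up to 133 residues, 12 had an estimate above 0, with a median of -0.03. Of the 25 longest, of 192 residues or more, 1 did, with a median of -0.07; without WT 1 it was 9, against 18 of the shortest. Over all alternatives rho in the family lay between -0.35 and -0.56. Within a library, the mean log2 CPM of the long genes minus that of the short genes was 1.26, 1.17 and 1.23 in WT and 1.16, 1.16 and 1.12 in DKO. All DKO libraries lay below all WT libraries, with WT 2 only just above them, and the groups' means differed by -0.072. The two-sided exact permutation p was 0.1, the smallest that 3 against 3 libraries can give. This difference was formed after the length relation had been seen in the same values, so it restates that relation and adds no support. Over all tested genes, 23.3% did not overlap between the groups in either direction. Rpl39, with 51 residues and an estimate of -0.047, and Rplp0, with 317 residues and -0.015, were exceptions at either end.

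**Figure D5:**
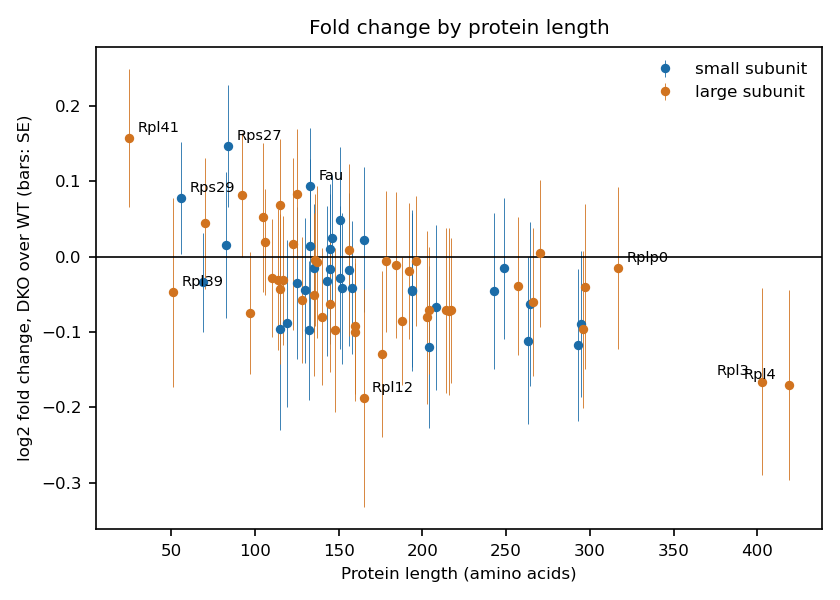
Log2 fold change of DKO over WT (y axis, bars are standard errors) against protein length in amino acids (x axis) for 76 ribosomal protein genes, small subunit in blue and large subunit in orange. Rpl41, Rps29 and Rps27 at the short end lie above 0 and Rpl3 and Rpl4 at the long end below, each within 2 standard errors of 0.

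The 4 X-linked genes were looked at apart, since libraries differed in Xist. Rps4x, the X-linked copy of small subunit protein eS4, had 512, 452 and 474 CPM in WT and 500, 421 and 409 in DKO, with a log2 fold change of -0.11 ± 0.11 (SE) with an edgeR adjusted p of 0.645. Rpl10, which joins the large subunit at a late step of its maturation, had 441, 380 and 391 CPM in WT and 429, 354 and 371 in DKO, and a log2 fold change of -0.071. Rpl36a (0.020) and Rpl39 (-0.047) were estimated closer to 0. In each of Rps4x, Rpl10 and Rpl39 the highest libraries were WT 1 and DKO 1, as in most of the family. Rps6, the small subunit protein that S6 kinases phosphorylate, had 318, 293 and 296 CPM in WT and 329, 283 and 284 in DKO, and a log2 fold change of -0.016 (SE 0.094). Rps27a, made as a fusion to ubiquitin, had a log2 fold change of -0.017, Rps3a1 of -0.062, Rplp2 of 0.069 and Rpsa of -0.089. None passed the test.

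Genes that work with or beside the ribosomal proteins were read from lists. Of 30 genes of ribosome biogenesis, such as RNA polymerase I subunits and nucleolar factors, 0 were called, 24 had an estimate below 0 and 6 above, and the median log2 fold change was -0.13, against -0.0068 over all genes. Among them were Nop56 (log2 fold change -0.33 ± 0.091, SE; adjusted p 0.129 in edgeR), a core protein of box C/D ribonucleoproteins, and Utp20 (log2 fold change -0.45 ± 0.11, SE; adjusted p 0.0944 in edgeR), a factor of small subunit processing. Of 23 elongation factors and other genes with TOP transcripts, 0 were called, 19 lay below 0 and 4 above, with a median of -0.076. Eef1a1, which brings aminoacyl-tRNA to the ribosome, had a log2 fold change of -0.20 (SE 0.15) and Eef2, the translocation factor, of -0.18 (SE 0.13). Of 18 genes between mTORC1 and the ribosome, 0 were called, 11 lay below 0 and 7 above, with a median of -0.059. Of 76 tested mitochondrial ribosomal protein genes, 0 were called, and here 51 lay above 0 and 25 below, with a median of 0.076. At an unadjusted p below 0.05 in edgeR, where 18% of all genes lay, there were 9 of the 30 biogenesis genes, 1 of the 23 elongation and TOP genes, 4 of the 18 mTORC1 genes and 0 of the 76 mitochondrial ones. DESeq2, which called 817 of the 25264 genes it fitted, called 3 of the 30 biogenesis genes, Myc, Utp20 and Taf1b, and none of the other 3 lists. Limma on log2(FPKM + 1), which called 77 of 13336 genes, called 0 in all 4 lists.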

How the data were processed

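RNA-seq of primary mouse enamel organ cells was read from 1 gene count table and 1 FPKM table per library, 3 DKO and 3 WT. The counts deposited by the authors are raw, 1 whole number for each Ensembl gene, and 0 rows named no gene. The FPKM values deposited by the authors have the columns of Cufflinks gene tracking tables. Trimmomatic 0.32, Cufflinks 2.2, HTSeq and GRCm38 are named without a role, per the submitters' processing notes. The sources used here do not give the aligner, annotation release or counting mode. The library kit does not mark strand, so overlapping and antisense genes cannot be told apart. Symbols came from the FPKM tables, which paired 46406 of 46603 genes; 49 identifiers on 2 rows and 9 genes with a failed estimate were left out of FPKM work. Positions, coding lengths and shared exon bases were taken from the vM21 release of GENCODE (GRCm38), with 46091 genes in common; the authors may have used another release. Promoter windows came from RefSeq (GRCm38.p6).

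The comparison of DKO with WT used edgeR 4.0.16 (quasi-likelihood, R 4.3.3) with TMM scaling, filterByExpr and no covariate, adjusted over all tested genes. The alternatives were 5 other scalings, 2 other filters, the replicate number as a block, a covariate marking the libraries whose Xist exceeded 100 CPM, length and GC offsets, DESeq2 1.42.0, limma 3.58.1 with trend on log2(FPKM + 1) or log2(FPKM + 0.1) for genes at 1 FPKM or more in at least 3 libraries or with no filter, and each library left out. Shares and subunit ratios had exact permutation tests over libraries. The fit was tested on simulated data. The members, the gene lists and the alternatives were chosen with earlier results of these data known. Named genes were the 5 highest and 5 lowest of each subunit by WT FPKM, the 5 largest estimates in each direction, the X-linked genes, Rplp0, Rplp1, Rplp2, Rpsa, Rps3a1, Fau, Rps27a, Rps6, called or paralogous genes of the lists, and the 3 that varied least like the family. Myc, Utp20, Taf1b, Nop56, Eef1a1, Eef2, Deptor and Rps10-ps4 were named after their values had been seen. A few genes that this rule names are not reported here.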

Additional observations from a re-analysis of the deposited data

How the results depend on the processing

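No ribosomal protein gene was called under any of the 20 alternatives, where the smallest adjusted p was 0.275. The family's median log2 fold change ran from -0.099 without DKO replicate 1 to 0.014 without WT replicate 1. The number of all genes called was 554 with no low-count filter, 328 with the replicate block, 71 with the Xist term, 817 by DESeq2, 77 by limma with either pseudocount, 11 by limma with no filter, and 21 to 335 with 1 library left out. The related lists then had 3 called genes with no filter, 2 with the replicate block, 3 by DESeq2 and 0 to 2 with 1 library left out. Groups share only the replicate numbers 1 and 3. Same-numbered libraries correlated at 0.19 and 0.00010 in their deviations from the group means, and DKO 3 with WT 2 and DKO 4 with WT 3, which share no number, at 0.19 and 0.20, so the numbers are not shown to pair the libraries. The family's share of FPKM differed by 0.372 points, against -0.152 in counts. Of 34 named genes, 14 had an estimate of the other sign under some alternative, each close to 0: with total counts Rps15 -0.039, Rpl35 -0.032, Rpl23a -0.042 and Rpl36a -0.027; with upper-quartile scaling Rplp0 0.0080, Rps27a 0.0063 and Rps6 0.0079; with the replicate block Rps15 -0.0024 and Rpl23a -0.036; with the Xist term Rps13 0.013, Rpl39 0.027, Rps27a 0.016 and Rps6 0.024; in FPKM Rpl23a -0.038; with length and GC offsets Rps15 -0.051, Rpl35 -0.046 and Rpl23a -0.012. With 1 library left out the ranges were -0.11 to 0.011 for Rps3, -0.14 to 0.013 for Rps7, -0.10 to 0.040 for Rps13, -0.023 to 0.044 for Rps15, -0.0038 to 0.098 for Rps14, -0.070 to 0.11 for Rpl35, -0.18 to 0.057 for Rpl39, -0.055 to 0.014 for Rplp1, -0.063 to 0.028 for Rplp0, -0.087 to 0.13 for Rpl23a, -0.15 to 0.00088 for Rpl10, -0.023 to 0.052 for Rpl36a, -0.095 to 0.037 for Rps27a and -0.084 to 0.026 for Rps6. The cause was not tested. The depth limits Rpl24, with 7 to 15 counts a library.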

Other observations

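Relatives of the family that its naming rule left out were mostly scarce. Of 11 paralogs, 9 were tested, and 0 were called by edgeR, DESeq2 or limma, with 0 at an unadjusted p below 0.05. Rpl36al, an autosomal copy of the X-linked Rpl36a, stood at 229 FPKM in WT and 245 in DKO, and Rps27l at 140 and 146. Rpl22l1 stood at 128 and 122, Rps27rt at 49.4 and 54.1, Rpl7l1 at 25.1 and 24.2, Rps4l at 19.5 and 18.1, Rpl39l at 1.83 and 1.89, and Rpl3l, the muscle form of Rpl3, at 0.815 and 0.456. Of 261 genes with ribosomal protein pseudogene names, 124 had 0 counts in all 6 libraries and 31 were tested, none of them called by edgeR, DESeq2 or limma, with 1 at an unadjusted p below 0.05. Their summed level lay between 308 and 320 CPM in DKO and between 311 and 362 in WT. Reads of near-identical copies may be split among these genes and the family in a way that the deposited tables do not show.

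Myc, a transcription factor known to drive ribosome production, was at 41.4, 18.6 and 31.4 CPM in WT 1, 2 and 3 and at 16.5, 9.63 and 11.8 in DKO 1, 3 and 4. All DKO libraries lay below all WT libraries, and the log2 fold change was -1.27 (SE 0.31), with an edgeR adjusted p of 0.101. The adjusted p was 0.0145 in edgeR with no low-count filter, 0.00752 with the replicate block, 0.000668 in DESeq2 and 0.0247 in edgeR without WT replicate 2. Other list genes called only in some alternatives were Utp20, Taf1b, Deptor and Rps10-ps4, a pseudogene name. Within each genotype Myc was highest in replicate 1, as were most ribosomal protein genes. Across genotypes the orders differed: Myc in DKO 1, at 16.5 CPM, lay below all WT libraries, whereas DKO 1 held the highest CPM of 37 ribosomal protein genes. A link between Myc and the family was not tested. Mitochondrially encoded genes took 1.39% to 1.51% of the counts in DKO and 1.74% to 1.84% in WT, with no overlap (two-sided exact permutation p = 0.1, the smallest that 3 against 3 libraries can give).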
